A study of Mus musculus with 6 samples.

Results

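The genes described here encode the UDP-glucuronosyltransferases (Ugt) and the glutathione S-transferases (Gst and Mgst) of mouse liver. They were taken by name from the deposited count table: a row was a member if its symbol began with Ugt1, Ugt2 or Ugt3 followed by a letter and a digit, or with Gst, 1 of the class letters a, m, k, o, p, t or z and a digit, or was Mgst1, Mgst2 or Mgst3. This gave 43 members of 15454 rows, 19 Ugt and 24 Gst or Mgst genes. Of these, 41 had enough counts to be tested among 12411 genes in all, and Gsto2 and Mgst2 had not.

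The liver RNA came from C57BL/6 males, 8 to 10 weeks old, in all of which 75% of the liver had been made ischemic at body temperature and then reperfused. The labels name liver and no lobe. The 3 mice of the I/R group had received vehicle, and the 3 mice of the I/R+Rk2 group had received ginsenoside Rk2, a triterpene saponin of processed ginseng, 2 days before surgery and again when reperfusion began. No sham-operated liver was analysed here, so every change is one between injured livers with and without Rk2, and the livers were collected hours after reperfusion. The Rk2 dose was the higher of those given to I/R mice in the study; the dose and the exact time of collection are stated in its methods and not in the labels. The comparison addresses how Rk2 altered the transcripts of these conjugating enzymes in the injured liver.

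Glucuronosyltransferases sit in the membrane of the endoplasmic reticulum and join glucuronic acid, carried by UDP, to bilirubin, steroids, bile acids and drugs, which can then be excreted. Glutathione S-transferases join glutathione to electrophiles such as lipid peroxidation products and drug metabolites. The alpha, mu, pi, theta, omega and zeta classes are soluble, the kappa class is found in mitochondria and peroxisomes, and the Mgst proteins lie in membranes. Hepatocytes are the main site of both families in the liver, and many members are induced through NRF2, CAR, PXR or AHR.

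Levels are given as counts per 1000000 of the scaled library (CPM), in the order of replicates 1, 2 and 3, and a positive log2 fold change means a higher level with Rk2. A gene passed the test with an edgeR adjusted p below 0.05. Total counts ran from 16809613 in I/R replicate 1 to 35618074 in I/R+Rk2 replicate 2. The 6 libraries were counted as separate samples, and p-values measure the spread between them. I/R replicate 1 held the lowest value of its group for 30 of the 41 tested members.

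The transferases were mostly higher with Rk2, by modest amounts. Of the 41 tested members, 22 were higher and 2 were lower past the test, and the log2 fold change was positive for 33 and negative for 8, where it was positive for 49.6% of all genes tested. Together 58.5% of them passed, where 43.9% of all genes tested did, with 20.3% of all genes higher and 23.7% lower. Those shares stand for 2516 genes higher and 2938 lower, and without composition factors in the scaling they came to 1320 and 3481, with the median of all genes at -0.17. The median log2 fold change of the members was 0.55 and that of all genes tested was -0.01. The values of the 2 groups did not overlap for 30 members, 73.2% of them, where 57.4% of all genes did not. Changes of more than 2-fold were few: Gstm1 was the member higher and Gsta1 the member lower past both limits, where 3.17% of all genes tested were higher and 11.4% lower past them (14.6% in either direction).

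The Gst and Mgst genes passed more often than the Ugt genes. Among the 22 tested Gst and Mgst genes 15 rose and 2 fell, and the median log2 fold change was 0.60. Among the 19 Ugt genes 7 rose and 0 fell, and the median was 0.55. The difference between these counts was not tested, and 9 of the Ugt rows share exons at a single locus, described below. Of the Ugt genes 36.8% passed, and of the Gst and Mgst genes 77.3%, where 43.9% of all genes tested did. The groups did not overlap for 52.6% of the Ugt genes and 90.9% of the Gst and Mgst genes, where the share of all genes was 57.4%.

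**Figure D1:**
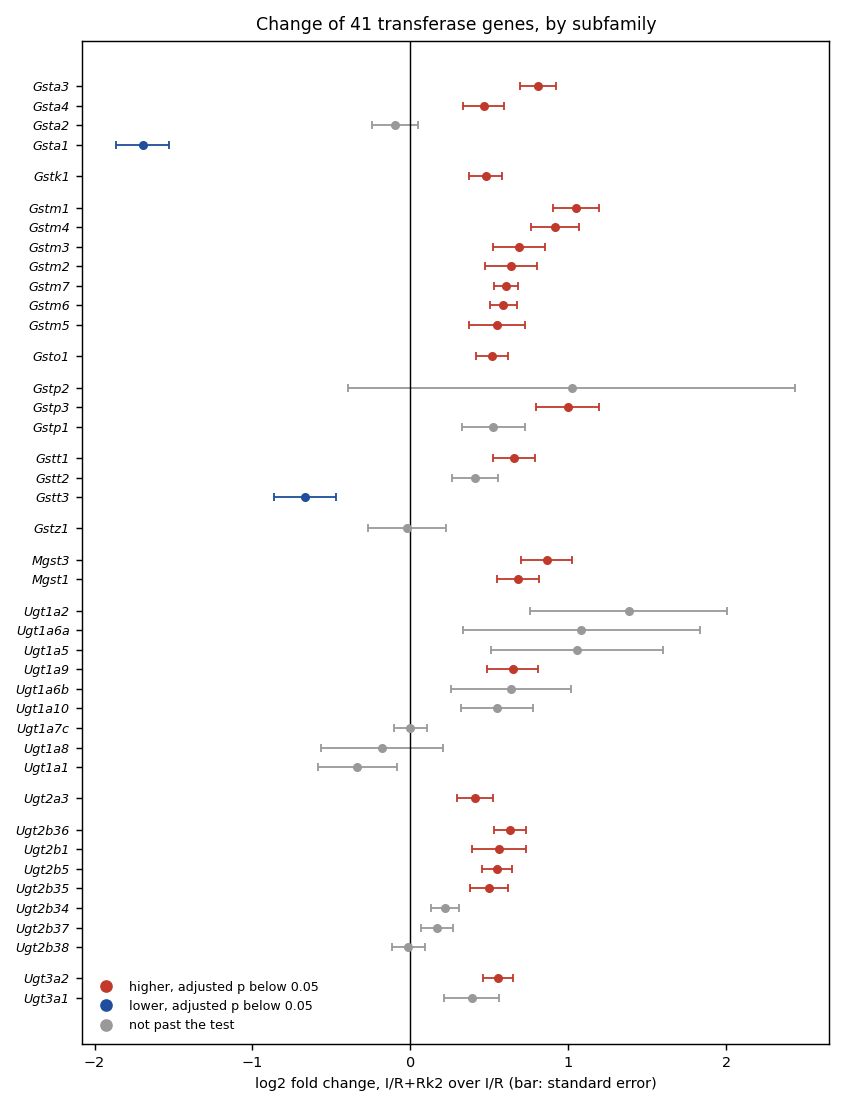
Log2 fold change of the 41 tested transferase genes, I/R+Rk2 over I/R, by subfamily, with standard errors from the edgeR fit. All 7 Gstm genes lie between 0.55 and 1.05, Gsta1 lies at -1.69, and the widest bars belong to Gstp2 and several Ugt1a rows.

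In bulk liver a fall in the number of cells of a type and less RNA in each of them cannot be told apart, and the makeup of the tissue RNA differed between the groups. All 10 monocyte markers were lower with Rk2 and passed the test, with a median log2 fold change of -3.99. Their summed level was 1745 to 2096 CPM after I/R and 1171 to 1232 CPM after I/R+Rk2, most of it Fn1, which hepatocytes also make (log2 fold change -0.49, looked at after its values were seen). Without Fn1 the sums were 336 to 420 CPM and 51.4 to 72.7 CPM. Of 11 neutrophil markers 10 were lower, with sums of 545 to 681 CPM against 99.5 to 231 CPM. Of 12 hepatocyte markers 8 were higher and 0 lower, with a median log2 fold change of 0.48 and sums of 62767 to 73236 CPM against 95969 to 118449 CPM. Alb made up most of these sums, at 44262 to 52469 CPM after I/R and 68876 to 88052 CPM after I/R+Rk2. No marker on these 3 lists was at 0 in every library. Of all genes tested, 20.3% were higher and 23.7% lower. The median change of the hepatocyte markers was close in size to that of the transferases, and its part in their rise was not tested.

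By level, the membrane enzyme Mgst1 stood first. In FPKM, fragments scaled to transcript length and to the number mapped, a scale on which genes can be compared, Mgst1 was at 2656 ± 151 (SD, n = 3) in I/R and 3703 ± 332 in I/R+Rk2. It made up 35.4% of the summed FPKM of the members on average. Gstp1 followed at 1179 ± 146 and 1535 ± 399 FPKM. Gstm1 was at 441 ± 10.9 and 879 ± 157 FPKM and Gsta3 at 511 ± 22.6 and 787 ± 63.0 FPKM. The order of their means differed by group. In I/R, Gsta3 (491, 535 and 505 FPKM) was above Gstm1 (429, 442 and 451 FPKM) in every liver. In I/R+Rk2, Gsta3 (782, 852 and 726 FPKM) was still above Gstm1 (761, 819 and 1057 FPKM) in replicates 1 and 2. Only in replicate 3 was Gstm1 higher, and that liver set the order of the means. The most abundant Ugt gene was Ugt2b5, at 284 ± 7.04 and 371 ± 25.5 FPKM.

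Summed over the members, the level was 7490 ± 646 FPKM in I/R and 10479 ± 546 FPKM in I/R+Rk2. The sum over Gst and Mgst genes rose from 6051 ± 586 to 8653 ± 575 FPKM, a ratio of 1.43, and that over Ugt genes from 1440 ± 62.3 to 1826 ± 29.8 FPKM, a ratio of 1.27. In the count table the Gst and Mgst rows took 0.521% to 0.632% of all counts in the I/R livers and 0.779% to 0.886% in the I/R+Rk2 livers, and the Ugt rows took 0.319% to 0.345% and 0.416% to 0.426%. These sums are descriptions without a test, and FPKM takes no account of the shift in RNA makeup that the scaled counts correct for.

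**Figure D2:**
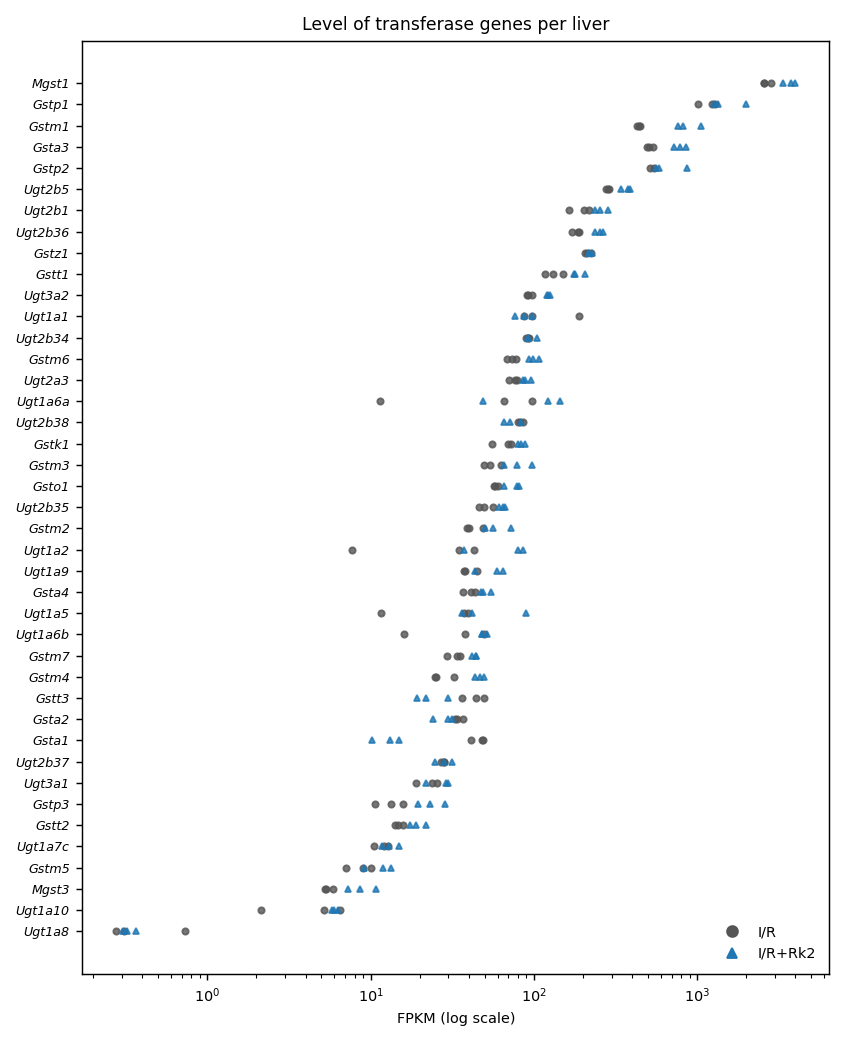
FPKM of the transferase genes in each liver on a log scale, circles for I/R and triangles for I/R+Rk2, ordered by the mean over all 6 livers. Gsto2, Mgst2 and values of 0 are not drawn, which leaves Gstp2 with 2 points for I/R, and Mgst1 is the highest gene in every liver.

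The alpha class held changes in opposite directions. Gsta3, the most abundant alpha gene, was at 611, 753 and 716 CPM after I/R and at 1175, 1316 and 1155 CPM after I/R+Rk2. Every Rk2 liver was above every vehicle liver, and the log2 fold change was 0.81 (SE 0.11, adjusted p = 0.00198). Gsta1 went the other way, with 37.9, 43.4 and 37.2 CPM after I/R and 9.37, 14.4 and 12.8 CPM after I/R+Rk2. It was 3.24-fold lower with Rk2, without overlap (log2 fold change -1.69, SE 0.17, adjusted p = 0.000628).

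Gsta4, whose enzyme prefers 4-hydroxynonenal, a product of lipid peroxidation, was at 33.7, 42.1 and 44.8 CPM after I/R and 50.6, 60.5 and 55.5 CPM after I/R+Rk2. The groups did not overlap (log2 fold change 0.46, SE 0.13, adjusted p = 0.0238), and the call was lost under 8 of 17 alternative analyses. Among them were the fits without I/R replicate 1, I/R+Rk2 replicate 2 or I/R+Rk2 replicate 3, with adjusted p of 0.0525 to 0.0828. Gsta2 was at 28.5 ± 0.214 CPM and 26.6 ± 4.99 CPM (log2 fold change -0.10, adjusted p = 0.603).

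Gsta1 and Gsta2 are near copies on chromosome 9, and 44.6% of the 50-base stretches of the Gsta1 transcripts also occur in those of Gsta2, so reads may be split between them. With both rows summed, the level was 68.0 ± 3.54 CPM after I/R and 38.8 ± 7.50 CPM after I/R+Rk2 (log2 fold change -0.81, SE 0.15, adjusted p = 0.00503). Gsta3, on chromosome 1, shares no such stretch with another member. Within a liver, the FPKM ratio of Gsta1 to Gsta3 was 0.0901 ± 0.00783 in I/R and 0.0162 ± 0.00274 in I/R+Rk2, and that of Gsta1 to Gsta2 was 1.34 ± 0.137 and 0.444 ± 0.0265. Neither ratio overlapped between groups. An exact two-sided permutation test gave p = 0.1 for each, the smallest that 3 against 3 allows, and the pairs were chosen after the values were seen.

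The promoters of the alpha genes that moved in opposite directions, and of the mu gene that rose most, are shown so that the sequence upstream of each can be read beside its change. They are the 250 bases before the transcription start on the gene's strand (RefSeq, GRCm38.p6), at chr1:21240335-21240584 on the plus strand for Gsta3, chr9:78230419-78230668 on the plus strand for Gsta1 and chr3:108017974-108018223 on the minus strand for the first of the Gstm1 starts. Capitals mark a match to TGACNNNGC, the core of the antioxidant response element that NRF2 binds.
Gsta3: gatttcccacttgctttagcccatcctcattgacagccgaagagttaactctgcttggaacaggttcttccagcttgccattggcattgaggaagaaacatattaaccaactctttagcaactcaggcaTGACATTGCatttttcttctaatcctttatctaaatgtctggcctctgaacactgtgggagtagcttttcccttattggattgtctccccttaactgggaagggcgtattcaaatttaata
Gsta1: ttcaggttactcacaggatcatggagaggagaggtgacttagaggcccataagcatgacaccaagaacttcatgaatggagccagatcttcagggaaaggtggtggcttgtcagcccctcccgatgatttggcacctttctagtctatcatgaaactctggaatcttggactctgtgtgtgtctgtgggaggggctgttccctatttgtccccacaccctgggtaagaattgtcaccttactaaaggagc
Gstm1: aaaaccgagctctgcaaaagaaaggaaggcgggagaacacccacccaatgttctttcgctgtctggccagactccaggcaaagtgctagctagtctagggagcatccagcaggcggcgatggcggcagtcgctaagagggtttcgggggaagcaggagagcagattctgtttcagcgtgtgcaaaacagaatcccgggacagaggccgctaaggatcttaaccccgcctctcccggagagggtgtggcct

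The Gsta3 window held TGACATTGC 121 bases before the start, and the Gsta1 and Gstm1 windows held no match. Sequence upstream of these short windows was not searched. The lack of a match therefore holds for the window only and does not show that Gsta1 or Gstm1 is without such an element. Of 39 members with a RefSeq window, 4 held this motif on either strand, a share of 10.3% where 11.5% of all 27025 genes with a window held it (a gene counted once if any of its windows had a match). The other 3 were Gstm5 (TGACCACGC), Gstm7 (TGACAAAGC) and Mgst1 (GCACGGTCA, the motif on the opposite strand). The AHR-type motif TNGCGTG was found for 2 members, Gsta2 and Ugt1a5, and for 4.76% of all genes. The sequence AGTTCA, bound by CAR and PXR as repeats, was found for 3 members and for 13.4% of all genes. The HNF1-type core GTTAAT was found for 7 members, 17.9% of them, and for 7.49% of all genes. The 7 were Gsta3, Ugt1a1, Ugt1a10, Ugt1a6a, Ugt1a9, Ugt2a3 and Ugt3a1. HNF1 factors are known activators of liver genes. Both strands were searched, the motifs may overlap, and a match describes letters and not binding. Gsta4, Gstt2, Ugt1a6b and Ugt3a2 were without a window.

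The mu class rose as a whole. Its 7 genes lie within 149 kb of chromosome 3, and all 7 were higher past the test with groups that did not overlap. Of all genes tested, 20.3% were higher and 57.4% did not overlap. The log2 fold changes of the 7 genes ran from 0.55 to 1.05 with a median of 0.64. Mu enzymes act on epoxides and quinones. Gstm1, the most abundant of them in liver, was at 408, 476 and 489 CPM after I/R and 810, 905 and 1127 CPM after I/R+Rk2. The lowest Rk2 liver was well above the highest vehicle liver, and the gene was 2.07-fold higher (log2 fold change 1.05, SE 0.14, adjusted p = 0.00186).

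Gstm4 followed, with 38.5, 57.7 and 43.7 CPM after I/R and 86.0, 93.7 and 84.2 CPM after I/R+Rk2 (log2 fold change 0.91, SE 0.15, adjusted p = 0.00357). Gstm3 was at 60.4, 86.4 and 74.1 CPM against 139, 117 and 99.97 CPM (log2 fold change 0.69, SE 0.17, adjusted p = 0.0147). Gstm2 was at 38.8, 52.6 and 45.0 CPM against 63.8, 86.2 and 62.1 CPM (log2 fold change 0.64, SE 0.16, adjusted p = 0.0186). None of the 3 overlapped between groups. Gstm3 did not pass without I/R replicate 3 (adjusted p = 0.0512), and Gstm2 did not pass without I/R replicate 1, I/R replicate 3 or I/R+Rk2 replicate 2 (adjusted p from 0.0528 to 0.0599).

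Gstm7 varied little, at 41.0, 44.2 and 41.3 CPM after I/R and 63.8, 64.7 and 64.2 CPM after I/R+Rk2, with a log2 fold change of 0.61 (SE 0.08, adjusted p = 0.00133). Gstm6 was at 59.1, 63.5 and 60.2 CPM against 86.7, 98.5 and 89.3 CPM (log2 fold change 0.59, SE 0.09, adjusted p = 0.00224). The lowest of the class in FPKM, Gstm5, was at 6.83, 8.43 and 6.14 CPM against 11.8, 11.0 and 8.47 CPM. Its groups were separated by a narrow gap (log2 fold change 0.55, SE 0.18, adjusted p = 0.0421), and its call was lost under 10 of 17 alternatives. The fits without I/R replicate 1, I/R replicate 3, I/R+Rk2 replicate 1 or I/R+Rk2 replicate 2 were among these, with adjusted p of 0.103 to 0.136. Gstm5 overlaps 4933431E20Rik on the opposite strand, and the strand setting of the counts is not given in the sources used here. Near-identical sequence is limited in this class: 9.36% of the 50-base stretches of Gstm1 and 15.8% of those of Gstm3 occur in another member. Under all 17 alternatives each of the 7 log2 fold changes was positive, with 4 to 7 past the test.

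**Figure D3:**
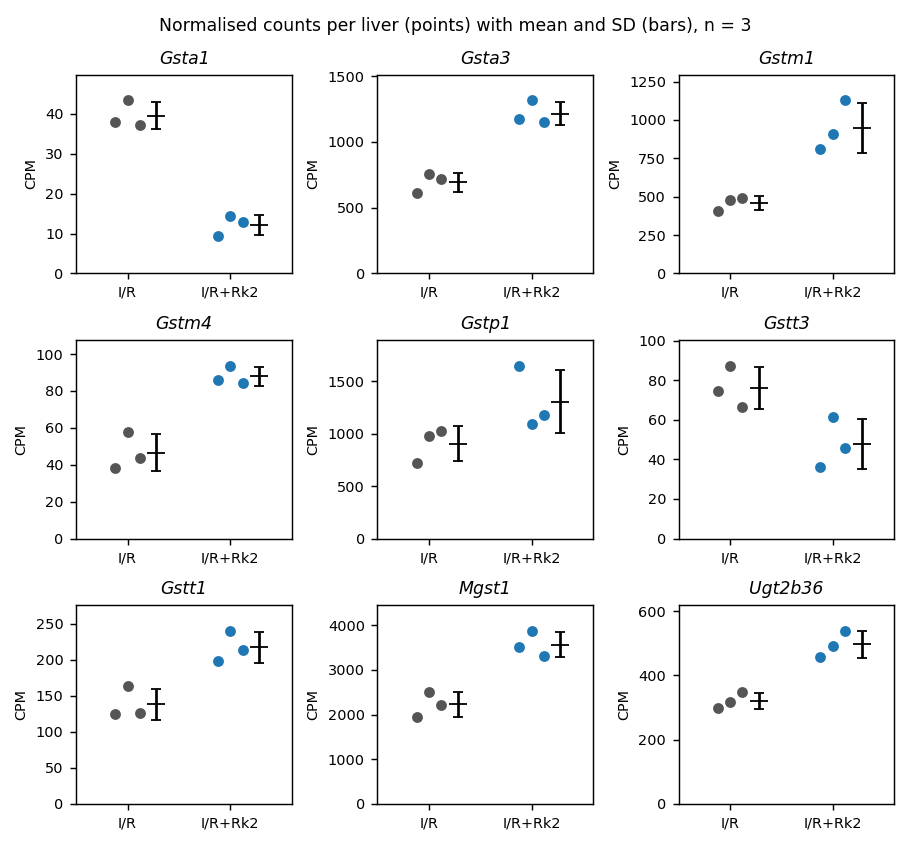
CPM of 9 transferase genes in each liver (points), with the mean and SD of the group (bars, n = 3), each panel from 0. Gsta1 and Gstt3 are lower in every I/R+Rk2 liver than in any I/R liver, and the other 7 genes are higher; Gstp1 did not pass the test.

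The membrane class followed the mu class. Mgst1, a trimeric enzyme of the endoplasmic reticulum and outer mitochondrial membrane with peroxidase activity, was at 1953, 2510 and 2214 CPM after I/R and 3508, 3877 and 3316 CPM after I/R+Rk2. No vehicle liver reached the lowest Rk2 liver (log2 fold change 0.68, SE 0.13, adjusted p = 0.00612). Mgst3 was scarce, with 6.05, 6.01 and 6.18 CPM after I/R and 10.4, 13.3 and 9.27 CPM after I/R+Rk2 (log2 fold change 0.86, SE 0.16, adjusted p = 0.00526). Mgst2 held between 0 and 6 counts in each library and was not tested.

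In the pi class 1 of 3 genes passed the test, where 43.9% of all genes tested did. Gstp1 was at 717, 978 and 1022 CPM after I/R and 1648, 1088 and 1174 CPM after I/R+Rk2. The groups did not overlap, but the spread was wide and the test was not passed (log2 fold change 0.53, SE 0.20, adjusted p = 0.0683). Gstp2 was at 0 in I/R replicate 1 and at 417 to 728 CPM in the other 5 livers, and 51.0% of the 50-base stretches of Gstp1 also occur in Gstp2. Its log2 fold change of 1.02 had an SE of 1.42 (adjusted p = 0.586), and it was 0.44 without I/R replicate 1 (adjusted p = 0.115).

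With the 3 Gstp rows summed, the values were 725, 1406 and 1470 CPM after I/R and 2393, 1599 and 1715 CPM after I/R+Rk2, and I/R replicate 1 still stood lowest (log2 fold change 0.66, SE 0.28, adjusted p = 0.0962). Gstp3, which shares no 50-base stretch with the other two, was at 8.65, 11.5 and 7.77 CPM against 17.4, 22.4 and 15.7 CPM. It was 1.99-fold higher without overlap (log2 fold change 0.99, SE 0.20, adjusted p = 0.00685).

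The theta class also split. Gstt1, which acts on small halogenated molecules, was at 125, 163 and 126 CPM after I/R and 198, 240 and 213 CPM after I/R+Rk2 (log2 fold change 0.65, SE 0.13, adjusted p = 0.00755). Its neighbour Gstt3 was at 74.4, 87.4 and 66.5 CPM after I/R and 36.4, 61.5 and 45.7 CPM after I/R+Rk2 (log2 fold change -0.67, SE 0.20, adjusted p = 0.0306). The groups of Gstt3 were close but did not overlap, and its call was lost when I/R replicate 1, I/R replicate 2, I/R+Rk2 replicate 1 or I/R+Rk2 replicate 3 was left out, with adjusted p of 0.0516 to 0.0923. Gstt3 shares exon sequence on its strand with the model Gm20441. The FPKM ratio of Gstt3 to Gstt1 was 0.324 ± 0.0145 in I/R and 0.126 ± 0.0180 in I/R+Rk2 (exact permutation p = 0.1, the smallest possible, for a pair chosen after the values were seen). Gstt2 was at 19.9 ± 1.65 and 26.4 ± 4.42 CPM (adjusted p = 0.0554), and passed under 7 of 17 alternatives, including the fit without I/R+Rk2 replicate 1 (adjusted p = 0.0108).

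The omega and kappa classes were higher with Rk2 and the zeta class was not. Gsto1, an omega enzyme with thioltransferase activity, was at 63.8, 74.3 and 70.4 CPM after I/R and 104, 105 and 89.3 CPM after I/R+Rk2 (log2 fold change 0.52, SE 0.10, adjusted p = 0.00656). The kappa gene Gstk1 was at 57.0, 62.5 and 48.9 CPM against 75.9, 80.5 and 77.7 CPM (log2 fold change 0.48, SE 0.11, adjusted p = 0.0106). Neither overlapped between groups. Gstk1 lost its call under 4 alternatives. Gsto2 held 0 to 11 counts in each library and was not tested.

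Gstz1, the zeta gene, whose enzyme isomerises maleylacetoacetate in tyrosine breakdown, was at 176, 201 and 351 CPM after I/R and 226, 250 and 241 CPM after I/R+Rk2. I/R replicate 3 stood far above the other vehicle livers, and the log2 fold change was -0.02 (SE 0.25, adjusted p = 0.946). In the FPKM table the same liver did not stand apart, with 205, 212 and 225 FPKM in I/R and 218, 227 and 218 FPKM in I/R+Rk2. Its count and FPKM together imply a transcript of 1582 bases in that library and of 965 to 1045 bases in the other 5. Gstz1 overlaps Pomt2 and Gm6566 on the opposite strand. Without I/R replicate 3 the log2 fold change was 0.34 (adjusted p = 0.0649).

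The 9 Ugt1a genes are alternative starts of a single locus on chromosome 1. Each has its own first exon and they share the remaining exons, so that between 54.2% and 96.0% of the 50-base stretches of a row occur in another member and reads can be assigned to more than 1 row. The rows were therefore summed. The summed level was 612, 783 and 750 CPM after I/R and 972, 1162 and 1041 CPM after I/R+Rk2. Every Rk2 liver lay above every vehicle liver, and the locus rose (log2 fold change 0.57, SE 0.13, adjusted p = 0.0106).

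Row by row the picture was unstable. Ugt1a9 passed, at 92.5, 87.1 and 85.6 CPM after I/R and 104, 160 and 151 CPM after I/R+Rk2 (log2 fold change 0.65, SE 0.16, adjusted p = 0.0159), and it did not pass without I/R replicate 3 (adjusted p = 0.0529) or in FPKM. Ugt1a1, the bilirubin-conjugating enzyme, was at 397, 203 and 228 CPM after I/R and 211, 246 and 199 CPM after I/R+Rk2, with a log2 fold change of -0.34 (SE 0.25, adjusted p = 0.304). The value of I/R replicate 1 set that sign: without it the log2 fold change was 0.03 (adjusted p = 0.876). In this library Ugt1a1 held 64.8% of the counts of the locus, where it held 26.0% and 30.5% in the remaining vehicle livers and 19.2% to 21.7% in the I/R+Rk2 livers.

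The rows Ugt1a2, Ugt1a5, Ugt1a6a and Ugt1a6b were lowest in the same library. Ugt1a6a, for example, was at 22.8 CPM there and between 94.3 and 335 CPM in the other 5 livers. These 4 rows had log2 fold changes of 0.64 to 1.38 with standard errors of 0.38 to 0.75, and none passed the test. Without I/R replicate 1 the log2 fold change was 0.93 for Ugt1a2, 0.67 for Ugt1a5, 0.60 for Ugt1a6a and 0.29 for Ugt1a6b, again with none past the test. Ugt1a10 went from 0.55 to 0.34 without that library and passed in neither fit. Ugt1a7c was level at 19.4 ± 0.963 and 19.4 ± 1.58 CPM, and Ugt1a8 was below 2 CPM in every liver.

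**Figure D4:**
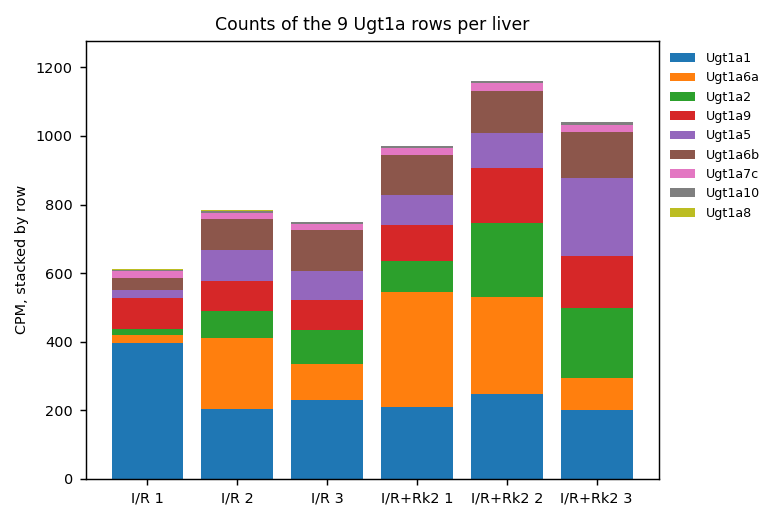
CPM of the 9 Ugt1a rows in each liver, stacked. The total is lower in the 3 I/R livers (612 to 783 CPM) than in the 3 I/R+Rk2 livers (972 to 1162 CPM), and in I/R replicate 1 Ugt1a1 takes 64.8% of it.

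The Ugt2b genes, which conjugate steroids, bile acids and fatty acids, lie together on chromosome 5. Of the 7, 4 were higher past the test, where 20.3% of all genes tested were higher. Ugt2b36 was at 299, 315 and 348 CPM after I/R and 458, 492 and 538 CPM after I/R+Rk2 (log2 fold change 0.63, SE 0.10, adjusted p = 0.00326). Ugt2b5 was at 499, 534 and 563 CPM against 793, 717 and 820 CPM (log2 fold change 0.55, SE 0.10, adjusted p = 0.00439). Both were clear of overlap and kept their calls under all 17 alternatives.

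Ugt2b1 was at 393, 586 and 547 CPM after I/R and 662, 736 and 856 CPM after I/R+Rk2 (log2 fold change 0.56, SE 0.17, adjusted p = 0.0330). Ugt2b35 was at 145, 198 and 174 CPM against 245, 245 and 239 CPM (log2 fold change 0.50, SE 0.12, adjusted p = 0.0144). Their groups did not overlap, but Ugt2b1 did not pass without I/R replicate 1, I/R replicate 3, I/R+Rk2 replicate 2 or I/R+Rk2 replicate 3 (adjusted p from 0.0672 to 0.0965), and Ugt2b35 did not pass without I/R replicate 3 (adjusted p = 0.0515). The other 3 did not pass: Ugt2b34 at 284 ± 18.0 and 331 ± 15.2 CPM (adjusted p = 0.0779), Ugt2b37 at 53.4 ± 3.11 and 60.1 ± 6.32 CPM, and Ugt2b38 at 159 ± 11.8 and 157 ± 15.8 CPM. Ugt2b38 shares 34.1% of its 50-base stretches with Ugt2b5, so their rows are not fully separate. Of the stretches of Ugt2b5, 41.7% occur in other members, and no Ugt2b rows were summed.

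Ugt2a3, on the same chromosome, was at 141, 170 and 177 CPM after I/R and 198, 231 and 217 CPM after I/R+Rk2 (log2 fold change 0.41, SE 0.11, adjusted p = 0.0243), and it lost its call under 7 alternatives, those without I/R replicate 1, I/R+Rk2 replicate 2 or I/R+Rk2 replicate 3 among them (adjusted p from 0.0541 to 0.0836). Of the Ugt3a genes on chromosome 15, which use sugars other than glucuronic acid, Ugt3a2 was at 196, 222 and 236 CPM against 308, 326 and 326 CPM. It rose without overlap (log2 fold change 0.56, SE 0.10, adjusted p = 0.00397). Ugt3a1 was at 48.9 ± 7.81 and 64.0 ± 11.9 CPM (adjusted p = 0.107, and 0.0261 without I/R+Rk2 replicate 1).

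The genes that supply the transferases with substrate did not follow them as a group. Of 6 genes for supply and removal of UDP-glucuronic acid, Ugp2, which makes UDP-glucose, was higher (184 ± 18.6 and 261 ± 39.9 CPM, adjusted p = 0.0218), and Ugdh, which oxidises it to UDP-glucuronic acid, was lower (216 ± 22.3 and 168 ± 2.73 CPM, adjusted p = 0.0203). Of 19 tested genes for glutathione synthesis and breakdown, 4 were higher and 5 lower. The share past the test was 33.3% for the UDP-glucuronic acid list and 47.4% for the glutathione list, where 43.9% of all genes tested passed. Gclc, the catalytic subunit of the limiting step of glutathione synthesis, was at 1202 ± 161 CPM after I/R and 393 ± 31.0 CPM after I/R+Rk2 (log2 fold change -1.61, adjusted p = 0.000366). Slc7a11, the cystine importer, was at 14.4 ± 2.23 and 2.52 ± 0.402 CPM (log2 fold change -2.51, adjusted p = 0.000265). Chac2, which degrades glutathione, was at 4.85 ± 0.667 and 14.0 ± 2.15 CPM (log2 fold change 1.52, adjusted p = 0.000895).

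Other genes under the regulators of the transferases moved in both directions, as did all genes tested, 20.3% of them higher and 23.7% lower. The share past the test was 66.7% for the NRF2 list and 41.7% for the CAR, PXR and AHR list, where 43.9% of all genes passed. Of 15 further NRF2 target genes 6 were higher and 4 lower. The 3 with the smallest p were lower: Hmox1 at 293 ± 24.4 and 46.8 ± 6.12 CPM (log2 fold change -2.65), Srxn1 at 451 ± 46.4 and 72.4 ± 13.8 CPM (-2.64) and Txnrd1 at 448 ± 42.2 and 180 ± 15.3 CPM (-1.31). Of 12 targets of CAR, PXR and AHR 1 was higher and 4 lower, among them Por (log2 fold change -1.63), the reductase that serves cytochrome P450 enzymes, Cyp2b10 (-2.71) and Tiparp (-0.79). Of 19 tested regulators 4 were higher and 6 lower, so that 52.6% passed. Nfe2l2, which encodes NRF2, was lower (log2 fold change -0.74, adjusted p = 0.00471), as was Ahr (-0.94, adjusted p = 0.00215). Nr1i3, which encodes CAR, was higher (1.02, adjusted p = 0.00505). Nr1i2, which encodes PXR, did not pass (0.18, adjusted p = 0.522). Nr1h4, the bile acid receptor FXR, was at 42.0 ± 3.01 and 80.3 ± 1.55 CPM (log2 fold change 0.94), and Bach1, a repressor at antioxidant response elements, was at 104 ± 13.7 and 38.1 ± 5.38 CPM (-1.44).

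Of 9 tested genes on a list of export pumps 2 were higher and 3 lower, so that 55.6% passed where 43.9% of all genes tested did. The list was meant for pumps of conjugates, and Abcb1a, counted among the 3 lower, exports mainly unconjugated compounds. Abcc1 was at 8.31 ± 0.616 and 1.12 ± 0.485 CPM (log2 fold change -2.90) and Abcb1a at 10.5 ± 1.17 and 3.82 ± 1.36 CPM (-1.47), and Abcc6, found in hepatocytes, was at 61.8 ± 9.28 and 104 ± 13.8 CPM (0.75). The medians of these lists lay between -0.36 for the pumps and 0.26 for the glutathione genes, where the Gst and Mgst genes had 0.60.

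**Figure D5:**
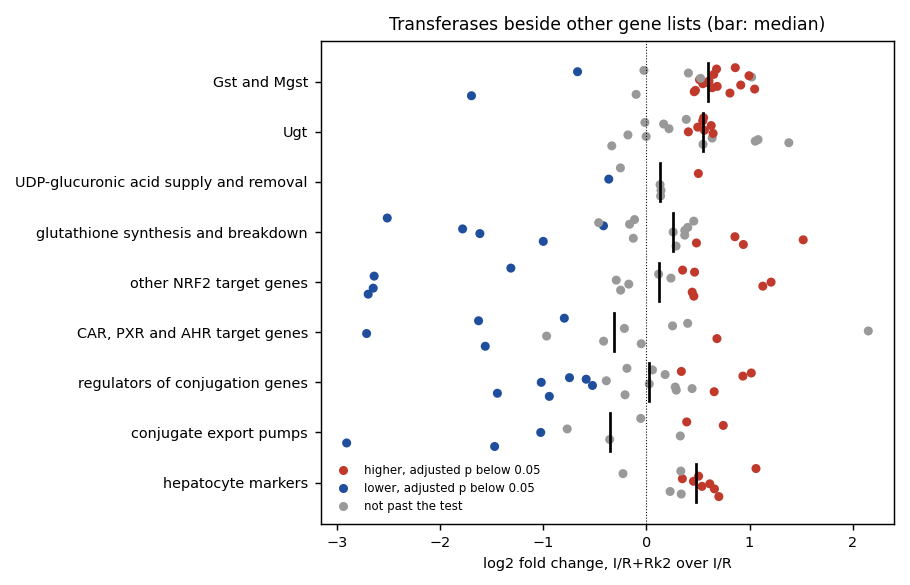
Log2 fold change of each tested gene, I/R+Rk2 over I/R, for the transferases, 6 lists of other conjugation genes and the hepatocyte markers, with the median as a bar. Medians lie at 0.60 for Gst and Mgst, 0.55 for Ugt and 0.48 for hepatocyte markers, and the other lists hold genes past the test on both sides of 0.

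The zones of the liver lobule were also read from markers, since several transferases are zoned. Of 12 periportal hepatocyte markers 7 were higher and 1 lower, with sums of 5585 to 6393 CPM after I/R and 6265 to 9830 CPM after I/R+Rk2. Of 12 pericentral markers 2 were higher and 2 lower, with sums of 4119 to 5054 CPM against 4516 to 5632 CPM. The sums of both zones overlapped between the groups, as did those of the endothelial markers. The periportal sums included Pck1, at 1303 to 1556 CPM after I/R and 541 to 2811 CPM after I/R+Rk2. Taken singly, 10 of the 12 periportal markers (83.3%) did not overlap, in either direction. For pericentral markers the share was 41.7%, and for all genes tested 57.4%. Of 10 Kupffer cell markers 2 were lower and 0 higher (112 to 169 CPM against 81.1 to 99.5 CPM). Among endothelial markers 4 of 10 were higher and 3 lower (216 to 228 CPM against 182 to 225 CPM), among stellate markers 5 of 10 were lower (235 to 284 CPM against 178 to 230 CPM), and among cholangiocyte markers 4 of 9 tested were lower (170 to 234 CPM against 86.0 to 120 CPM). No marker of these lists was at 0 in every library. The Kupffer, stellate and cholangiocyte sums did not overlap. Most of the cholangiocyte sum was Spp1, at 132 to 192 CPM after I/R and 55.0 to 82.7 CPM after I/R+Rk2, so that sum mainly follows this gene. The log2 fold change was negative for 7 of the 9 tested cholangiocyte markers and positive for 2. Past the test were 66.7% of periportal, 33.3% of pericentral and 20% of Kupffer markers. For endothelial, stellate and cholangiocyte markers the shares were 70%, 50% and 44.4%, and for all genes tested 43.9%. The part of these shifts in the transferase changes was not tested.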

How the data were processed

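Liver RNA of 6 mice was sequenced from libraries prepared with an MGI kit from 250 ng of RNA. The tools that the submitters' processing notes name are FastQC 0.11.5, HISAT2 2.2.1 and StringTie 1.3.3, with the build mm10; the annotation and the strand setting are not given in the sources used here. The authors deposited whole-number counts per gene and a table of FPKM per gene. The FPKM table deposited by the authors is normalised to transcript length and depth, not to RNA makeup, and held 46 rows matching the naming rule, 3 of them at 0 throughout.

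The main test was run with edgeR 4.0.16 (R 4.3.3) on all 6 libraries, without covariates: filterByExpr defaults, TMM scaling, quasi-likelihood F test and Benjamini-Hochberg adjustment over 12411 genes. The fold limit of 2 and the adjusted p limit of 0.05 follow the study. SE is the absolute log2 fold change divided by the square root of F. Alternatives were other scalings and filters, DESeq2 1.42.0, limma 3.58.1 on log2(FPKM + 1) or log2(FPKM + 0.1), a replicate block, removal of a transcript length trend, summed rows for near copies and leaving out each library. Ratios were tested by exact permutation in SciPy 1.17.1. The edgeR and limma code was tested on simulated data.

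Coordinates and transcripts came from GENCODE M21 (GRCm38), in which all 43 members were matched, and promoters from RefSeq GRCm38.p6. Members given with a value for every liver passed the test with a mean of at least 10 CPM in the higher group, led their subfamily in FPKM or passed both limits, and from each gene list at most the 3 genes with the smallest p were named. Other members, Fn1, Pck1, Alb, the further glutathione genes and the genes of NRF2, CAR, PXR and AHR were named after their values were seen. The members and lists were chosen with earlier results of these data known. At the depth reached, 3 counts stand for 0.0888 to 0.184 CPM, a floor that covers counting error only. Libraries of a group differed by more than sampling noise (chi-square per degree of freedom 31.4 to 74.8).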

Additional observations from a re-analysis of the deposited data

How the results depend on the processing

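Of 24 transferases past the test, 14 passed under all 17 alternatives: Gsta1, Gsta3, Gstm1, Gstm4, Gstm6, Gstm7, Gsto1, Gstp3, Gstt1, Mgst1, Mgst3, Ugt2b36, Ugt2b5 and Ugt3a2. The other 10 lost the call under at least 1, Gstm5 under 10 and Gsta4 under 8. Summing rows of near copies is not among the 17. The Gstp sum, which includes Gstp3, did not pass (adjusted p = 0.0962). Of 17 members that did not pass, 6 passed under at least 1 alternative. The count of members higher ran from 15 (limma on log2(FPKM + 1), no filter) to 25 (replicate block), and from 16 to 23 with 1 library left out. The count lower ran from 1 to 2 with 1 library left out. With library size alone, where the median of all genes was -0.17, 18 rose and 2 fell, and the median was 0.40.

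The count higher by more than 2-fold was 2 with relative log expression scaling, upper-quartile scaling or DESeq2, 3 with a replicate block, 0 without composition factors (library size alone), with the length trend removed and under all 3 limma settings, and 0 to 3 with 1 library left out. Gstm1 stood at that limit. The count lower by more than 2-fold was 0 where Gsta1 and Gsta2 were summed. The replicate numbers did not pair the libraries (correlations of deviations -0.056, 0.0052 and -0.058), so the block is given only here.

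Subfamily medians under library size alone, which lowers all genes, were 0.0233 for Gsta, 0.48 for Gstm, 0.61 for Mgst, 0.34 for Ugt2b and 0.31 for Ugt3a. Under limma on log2(FPKM + 1), with or without the filter, they were 0.0189, 0.47, 0.54, 0.34 and 0.32, and on log2(FPKM + 0.1) 0.0180, 0.47, 0.58, 0.35 and 0.32. With the length trend removed they were -0.0412 for Gsta, which reversed, 0.45 for Gstm and 0.56 for Mgst. The cause of the reversal was not tested.

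Members near 0 changed sign. Ugt1a7c came to 0.0107 with relative log expression scaling, 0.0501 with upper-quartile scaling, 0.0152 with DESeq2, 0.15 with limma on log2(FPKM + 1) and 0.16 on log2(FPKM + 0.1). Gstz1 came to 0.0286 with upper-quartile scaling, 0.0452 and 0.0454 with limma at the pseudocounts of 1 and 0.1, and 0.0455 with the replicate block. Ugt2b38 came to 0.0384 with upper-quartile scaling. With 1 library left out, the log2 fold change ran from -0.0668 to 0.0461 for Ugt1a7c, from -0.20 to 0.34 for Gstz1, from -0.0956 to 0.0600 for Ugt2b38, from -0.19 to 0.0416 for Gsta2, from -0.51 to 0.0276 for Ugt1a1 and from -0.40 to 0.27 for Ugt1a8. Summing the Ugt1a rows gave 0.57 in place of Ugt1a1, Ugt1a7c and Ugt1a8. None of these passed the test apart from the summed locus. Only 3 livers a group were compared, and Gsto2 and Mgst2 held too few counts to be tested.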

Other observations

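A list of genes outside the naming rule, near the transferases in name, fold or reaction and not all of their families, moved the other way. Ugt8a, the gene on it with a Ugt name, held too few counts to be tested. Of 7 tested, 5 were lower with Rk2 and 0 higher, where 23.7% of all genes tested were lower. Their median log2 fold change was -1.10. Ugcg, which joins glucose to ceramide, was at 41.9 ± 4.31 CPM after I/R and 16.1 ± 1.90 CPM after I/R+Rk2 (edgeR log2 fold change -1.38, adjusted p = 0.00051). Clic4, an intracellular channel protein with a glutathione S-transferase fold, was at 194 ± 17.0 and 107 ± 7.76 CPM (-0.86, adjusted p = 0.00105). Alox5ap, which serves leukotriene synthesis in myeloid cells, was at 23.7 ± 2.61 and 6.40 ± 1.79 CPM (-1.90, adjusted p = 0.00108). Monocyte and neutrophil markers were lower in the same livers, and their part in these changes was not tested.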
